A study of Mus musculus with 16 samples.

Results

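The genes described here are 10 members of the ABC family of membrane transporters that move lipids: Abca1, Abca2, Abca3, Abca5, Abca6, Abca7, Abca8a, Abca8b, Abca9 and Abcg1. They were taken by symbol from a table of RefSeq transcript counts that holds 24562 genes once the transcript row of highest total count is kept for each gene. For the 3 genes with more than 1 row, the row was chosen by its total count. For Abca3 the chosen and the next row held 14677 and 14671 counts over all libraries, for Abca7 9191 and 9161, and for Abca6 684 against 119 and 104. The list itself was selected on results of these data, with the difference in Abca9 between genotypes of B1b cells already known, and that difference is described here and supports nothing. The other 7 Abca genes in the table, Abca4, Abca12 and Abca13 to Abca17, had group means under 2 CPM and are named below.

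Samples came from mice of the ApoE-/- strain, whose apolipoprotein E gene is disrupted in every group and which is prone to atherosclerosis. B1b cells, innate-like B cells, were sorted from peritoneal lavage fluid as cells low in B220 and in CD5, and libraries were labelled wt (3) or cre (3). Whole aortas gave 5 libraries labelled wt and 5 labelled cre. The series describes the cre genotype as a deficiency of CD40, a costimulatory receptor, in B cells only. The labels name neither the promoter that drives Cre nor the ages, and leave open whether libraries are separate animals, so the tests reflect variation among these libraries, which may be technical.

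ABC transporters use the energy of ATP to carry substrates across membranes, and the A and G subfamilies carry mostly sterols and phospholipids. In a lipid-loaded macrophage, oxysterols activate the LXR nuclear receptors, which switch on Abca1 and Abcg1. ABCA1 passes cholesterol and phospholipid to lipid-poor apolipoprotein A-I, and ABCG1 passes cholesterol to formed high-density lipoprotein, steps that empty foam cells in the diseased artery wall. Of the others, ABCA2 works in lysosomes and endosomes, ABCA3 loads surfactant lipid into the lamellar bodies of lung cells, ABCA5 sits in lysosomes and late endosomes, and ABCA7 takes part in phagocytosis. Abca6, Abca8a, Abca8b and Abca9 form a closely related group whose substrates are less clear.

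Abca8b, Abca8a, Abca9, Abca6 and Abca5 lie side by side on the minus strand of chromosome 11 in mm10 (GRCm38), in that order, from 109932206 to 110337723. The intervals between neighbours are 29359, 3168, 6363 and 17592 bases. Abca9 itself spans 110100749 to 110168274 and Abca8a 110025634 to 110097580. Abca1 lies on chromosome 4 from 53030789 to 53159988, Abca2 on chromosome 2 from 25428599 to 25448544, Abca7 on chromosome 10 from 79996453 to 80015572, and Abca3 and Abcg1 on chromosome 17 from 24351921 to 24410204 and from 31057694 to 31117984. Transcripts of neighbours are alike enough to share reads. Abca8a and Abca8b had 105 runs of 50 identical bases in common of 5565 in the Abca8a transcript, and Abca6 and Abca9 had 13 of 5191. No other pair of the 10 genes had any of that length. Shorter identical runs were also shared by Abca8a and Abca9, by Abca8b and Abca9, and by Abca6 and Abca8a. Values of all these pairs are uncertain to that extent, since no source used here says how shared reads were handled.

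The start-site regions of 6 of these genes are shown because levels of the chromosome 11 neighbours part company between B cells and aorta. Each runs from 250 bases before the RefSeq transcription start to 50 after it (build GRCm38.p6), 5′ to 3′ along the gene, and capitals mark motifs found on either strand. The windows of Abca8a and Abca8b lie wholly inside the spans of these minus-strand genes, which end at 110097580 and 109996274. For these 2 genes the start used is thus not the outer end of the gene. The motifs in capitals are TATAAA, known as the TATA box, the CCAAT box that its own name spells, GGGCGG, known as the GC box, and CACGTG, the E-box of helix-loop-helix factors.
Abca1 (chr4:53159846-53160145, minus strand): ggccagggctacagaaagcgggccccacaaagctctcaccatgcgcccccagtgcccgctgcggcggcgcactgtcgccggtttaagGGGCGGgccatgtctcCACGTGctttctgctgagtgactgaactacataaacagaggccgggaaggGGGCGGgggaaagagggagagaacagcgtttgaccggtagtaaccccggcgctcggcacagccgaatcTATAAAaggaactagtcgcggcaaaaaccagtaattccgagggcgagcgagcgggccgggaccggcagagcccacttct
Abca7 (chr10:79996244-79996543, plus strand): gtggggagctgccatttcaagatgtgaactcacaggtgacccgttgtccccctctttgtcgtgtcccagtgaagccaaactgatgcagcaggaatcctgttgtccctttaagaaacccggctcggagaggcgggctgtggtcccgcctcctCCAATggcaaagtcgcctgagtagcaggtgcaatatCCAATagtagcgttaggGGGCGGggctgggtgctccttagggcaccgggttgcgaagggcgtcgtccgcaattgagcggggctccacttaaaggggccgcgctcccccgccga
Abca5 (chr11:110337667-110337966, minus strand): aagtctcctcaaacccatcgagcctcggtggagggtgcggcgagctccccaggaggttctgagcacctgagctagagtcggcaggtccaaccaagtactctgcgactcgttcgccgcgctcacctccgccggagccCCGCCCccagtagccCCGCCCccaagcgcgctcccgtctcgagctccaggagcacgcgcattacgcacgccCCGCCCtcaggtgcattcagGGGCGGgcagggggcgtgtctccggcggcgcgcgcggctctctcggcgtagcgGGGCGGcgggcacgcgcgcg
Abca8b (chr11:109995796-109996095, minus strand): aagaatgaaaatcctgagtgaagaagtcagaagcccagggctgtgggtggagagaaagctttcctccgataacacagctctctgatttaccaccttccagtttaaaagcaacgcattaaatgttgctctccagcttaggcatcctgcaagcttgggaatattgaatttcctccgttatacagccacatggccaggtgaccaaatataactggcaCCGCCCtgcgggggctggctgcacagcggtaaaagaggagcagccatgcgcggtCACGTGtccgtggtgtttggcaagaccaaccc
Abca8a (chr11:110095888-110096187, minus strand): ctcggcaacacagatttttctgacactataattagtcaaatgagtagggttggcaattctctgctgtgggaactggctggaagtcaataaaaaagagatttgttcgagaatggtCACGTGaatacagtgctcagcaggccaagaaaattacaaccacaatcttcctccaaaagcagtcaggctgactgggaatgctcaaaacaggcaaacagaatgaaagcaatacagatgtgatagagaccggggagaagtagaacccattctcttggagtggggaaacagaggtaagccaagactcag
Abca9 (chr11:110168104-110168403, minus strand): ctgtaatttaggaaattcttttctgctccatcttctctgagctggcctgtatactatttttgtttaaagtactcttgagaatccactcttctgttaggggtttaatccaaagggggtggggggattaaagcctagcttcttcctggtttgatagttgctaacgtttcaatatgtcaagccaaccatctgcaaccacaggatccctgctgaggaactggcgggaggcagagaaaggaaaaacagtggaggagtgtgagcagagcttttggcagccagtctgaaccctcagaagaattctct
RefSeq regions were matched for 8 of the 10 genes, and no matches overlapped. Abca1 held a TATA box from position -29 to -24, an E-box from -147 to -142 and GC boxes starting at -163 and -97. Over all 32851 such regions a TATA box was found in 13.6%, a CCAAT box in 37.4%, a GC box in 35.7% and an E-box in 7.15%. Abca5 held 5 GC boxes and Abca9 none of the motifs searched. AP-1 sites spelled TGANTCA (in 7.81% of regions), nuclear receptor half-sites spelled AGGTCA (16.3%) and the direct repeat of that half-site known as DR4 (0.0152%) were not among the letters of the 8 windows. The half-site and its repeat were searched in these exact spellings only, and sites that differ in any letter were not looked for. Whether the Abca1 window or any other holds such a variant DR4 was therefore not tested. CpG pairs numbered 10 in Abca8b, 4 in Abca8a and 2 in Abca9. Against these stood 19 in Abca7, 26 in Abca1 and Abca2, 29 in Abca3, 40 in Abca5 and a median of 7 over all regions. GC content followed the same division, at 51.3%, 44.3% and 45.3% in Abca8b, Abca8a and Abca9 and 60.7% to 72.3% in the other 5.

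B1b libraries held 6815829 to 9911226 counts and aortas 1645926 to 7300894, where cre replicate 2 and wild-type replicate 5 lay under 2000000. The labelled tissues showed their markers. Cd79a, of the B cell receptor, stood at 1251 to 1470 CPM (counts scaled to library size) in B1b cells and at 1.558 to 29.46 CPM in aortas, and smooth muscle Myh11 at 1577 to 4973 CPM in aortas and 1.496 to 3.249 CPM in B1b cells. Cd40 itself was not called between genotypes. It spanned 34.33 to 39.07 CPM in wild-type and 29.5 to 38.38 CPM in cre B1b cells, and the labels do not say which part of the gene was deleted, so a count over the transcript may not show the deletion. Cre minus wild type, its log2 difference was -0.16 in B1b cells (edgeR quasi-likelihood, Benjamini-Hochberg adjusted p = 0.679) and -0.35 in aortas (adjusted p = 0.711). These libraries are bulk RNA, in which fewer cells of a type and less RNA per cell cannot be told apart.

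Abca1, the sterol exporter, was abundant in B cells as well as in the vessel wall. It reached 315.8, 363.8 and 381.8 CPM in the wild-type B1b libraries and 340.1, 309.9 and 315.4 CPM in the cre libraries. In aortas its level was 371.1, 483.8, 373.3, 619.6 and 360.2 CPM in wild type and 465.6, 271.2, 264.4, 451.0 and 570.4 CPM in cre. The aortas spread over more than the whole range of the B cells, and genotypes overlapped within each tissue. Abcg1, its partner in efflux, stood at 122.8, 93.02 and 112.6 CPM in wild-type B1b cells and 111.1, 126.2 and 114.4 CPM in cre. Aortic Abcg1 was 171.1, 172.5, 226.3, 250 and 116.2 CPM in wild type and 239.3, 155.7, 150.7, 216.8 and 313.8 CPM in cre, so 9 of 10 aortas lay above every B1b library.

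**Figure D1:**
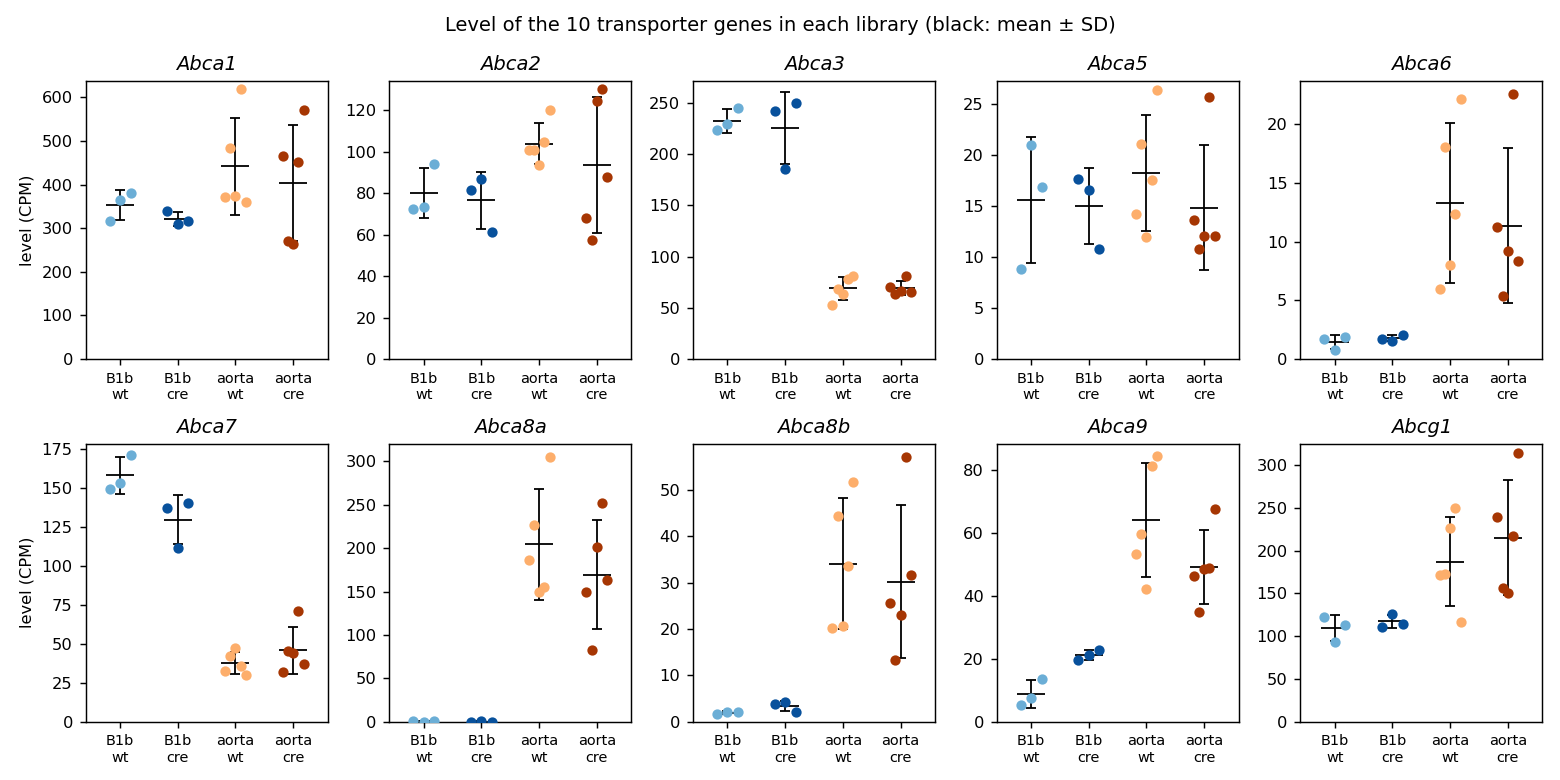
Level of each of the 10 genes in CPM (library-scaled counts; vertical axes from 0, a separate scale per gene) in 3 wild-type and 3 cre B1b libraries and 5 wild-type and 5 cre aortas; points are libraries, black lines the mean and SD. Abca3 and Abca7 sit higher in all B1b libraries than in any aorta, and Abca6, Abca8a, Abca8b and Abca9 sit lower.

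Divided by transcript length, levels of different genes can be ordered. In wild-type B1b cells the means in CPM per kilobase were 35.9 for Abca3, 34.5 for Abca1, 24.0 for Abca7, 18.8 for Abcg1 and 9.945 for Abca2. Far below came Abca5 at 1.891, Abca9 at 1.378, Abca6 at 0.2802, Abca8b at 0.2667 and Abca8a at 0.0922 CPM per kilobase. Ranges of Abca3 and Abca1, of Abca5 and Abca9, and of Abca6 and Abca8b overlapped, and the other neighbours in the order were separate. In cre B1b cells the mean of Abca9, 3.334 CPM per kilobase, stood above that of Abca5, 1.826, without overlap, and Abcg1 and Abca7 overlapped at 20.1 and 19.65.

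The wild-type aortas had another order. Abca1 led at 43.0 ± 10.9 CPM per kilobase (SD, n = 5), followed by Abca8a at 36.5 ± 11.4 and Abcg1 at 32.1 ± 8.99, and these neighbours overlapped. Then came Abca2 at 12.9, Abca3 at 10.6, Abca9 at 10.1, Abca7 at 5.686, Abca8b at 4.592, Abca6 at 2.54 and Abca5 at 2.219 CPM per kilobase. Only the step from Abcg1 to Abca2 was free of overlap among the neighbours in that order. As a share of the summed level per kilobase of the 10 genes, Abca3 and Abca7 together made up 46.6% to 47.5% in wild-type and 39.8% to 48.5% in cre B1b cells, against 9.505% to 11.9% in wild-type and 8.551% to 16.4% in cre aortas. The group of Abca6, Abca8a, Abca8b and Abca9 made up 1.227% to 2.136% in wild-type B1b cells, 3.13% to 3.717% in cre B1b cells, 25.8% to 46.6% in wild-type aortas and 22.7% to 36.1% in cre aortas. In B1b cells that share was mostly Abca9, at means of 1.065% in wild type and 2.752% in cre. The genotype difference in it thus largely restates the Abca9 value known when the genes were chosen. Abca1 and Abca2 kept like shares in the 4 groups. In the order wild-type and cre B1b cells, wild-type and cre aortas, the mean shares were 27.1%, 25.8%, 26.7% and 25.8% for Abca1 and 7.805%, 7.878%, 8.111% and 7.755% for Abca2.

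**Figure D2:**
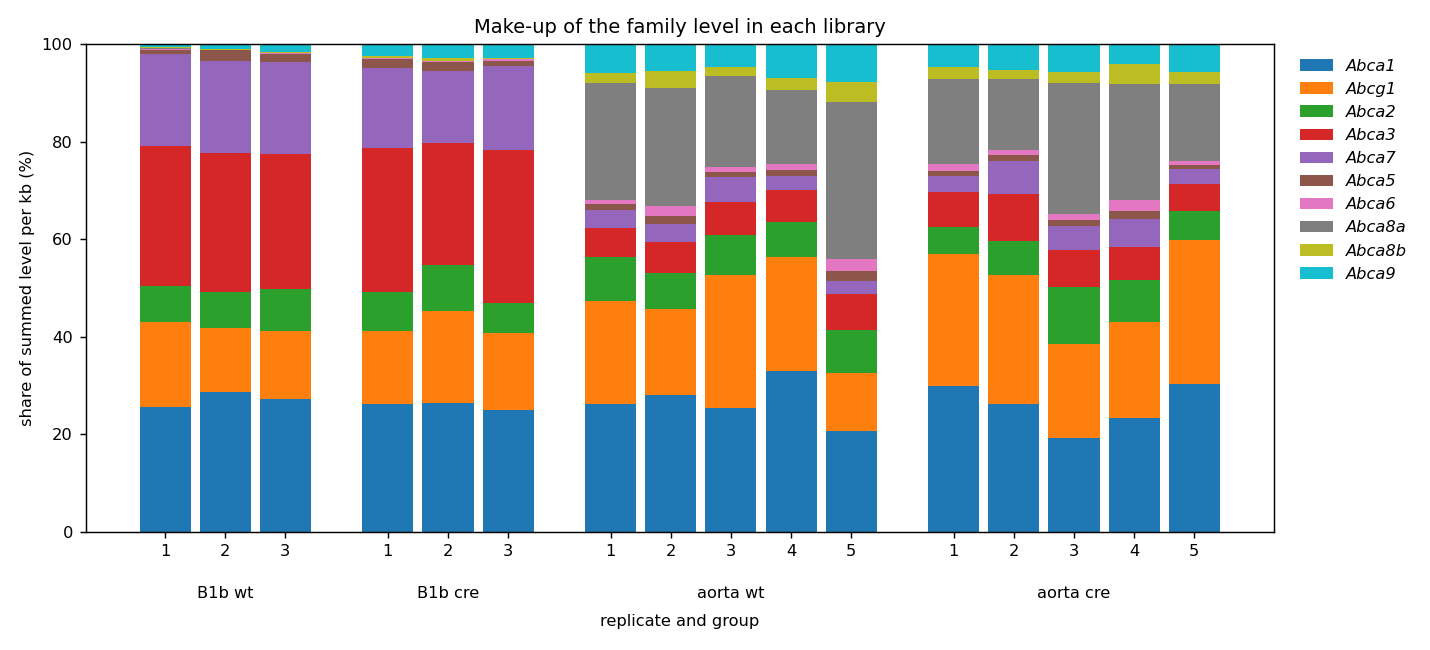
Share of each gene (percent, vertical axis from 0 to 100) in the summed level per kilobase of the 10 genes, a stacked bar for each of 16 libraries in 4 groups. Abca3 and Abca7 fill 39.8% to 48.5% of the B1b bars, and Abca8a fills a mean of 22.8% of the wild-type aortic bars and 0.07109% of the wild-type B1b bars.

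B1b cells were next set against aortas within wild-type libraries, a comparison in which tissue and preparation (sorted suspension or frozen vessel) cannot be told apart. Abca3 and Abca7 were higher in B1b cells (35.4% of all genes tested were), Abca2, Abca6, Abca8a, Abca8b, Abca9 and Abcg1 were lower (40.4%), and Abca1 and Abca5 did not pass. That made 8 of 10 genes called by edgeR, where 75.9% of the 14339 genes tested were called, a share near the members' own. Groups did not overlap for 6 of the 10, against 72.6% of all genes. The median log2 fold change (B1b minus aorta) was -0.58 over the 10 genes and -0.09 over all genes tested.

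Abca7, in whose B1b libraries levels were 149.3, 153.3 and 171.2 CPM, stood at 32.51, 42.08, 47.12, 35.56 and 30.1 CPM in the wild-type aortas. No B1b library came near an aorta. Its level was 4.16-fold higher in B1b cells (log2 fold change 2.05, SE 0.15, edgeR quasi-likelihood adjusted p = 5.23e-08). Abca3 stood at 223.2, 228.8 and 245.2 CPM in B1b cells and at 53.15 to 80.8 CPM in aortas (median 68.29), again without overlap. The log2 fold change was 1.75 (SE 0.14, edgeR adjusted p = 1.55e-07).

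Abca8a gave 4, 1 and 8 counts in the wild-type B1b libraries and 578 to 1098 counts in the wild-type aortas. Those counts equal 0.5353, 0.1295 and 0.8881 CPM against 186.0, 227.3, 149.7, 155.5 and 305.2 CPM. It passed the filter on low counts through the aortas alone, and so had to differ. The fitted log2 fold change was -8.53 with a 95% interval from -9.46 to -7.59. Abca8b, with 13, 17 and 18 counts in wild-type B1b cells, had a log2 fold change of -4.07 (SE 0.39; adjusted p by edgeR 9.59e-07). Its levels were 1.74, 2.202 and 1.998 CPM there and 20.17 to 51.75 CPM in aortas (median 33.57).

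Abca9 had 5.219, 7.514 and 13.65 CPM in wild-type B1b cells and 53.38, 59.7, 42.24, 81.46 and 84.5 CPM in wild-type aortas. The groups were apart, with a log2 fold change of -2.85 (SE 0.33; adjusted p by edgeR 6.24e-06). In cre libraries the same difference was -1.17 (SE 0.22, edgeR adjusted p = 0.000492). Abca6 was low everywhere, at 1.74, 0.7773 and 1.887 CPM in wild-type B1b cells and 5.932 to 22.18 CPM in wild-type aortas (median 12.32). Its log2 fold change was -3.11 (SE 0.50, edgeR adjusted p = 9.81e-05), and the call ended when the transcript row of lowest total was used (-1.31, adjusted p = 0.0841).

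Abcg1 was lower in B1b cells by -0.79 on the log2 scale (SE 0.22; adjusted p by edgeR 0.00532), although wild-type aorta replicate 5 fell inside the B1b range. In cre libraries the value was -0.83 (SE 0.25, adjusted p = 0.00937) and the groups were apart, as were those of 71.3% of all genes there. Abca2 stood at 72.53, 73.32 and 93.8 CPM in B1b cells and 93.3 to 119.9 CPM in aortas. Its log2 fold change of -0.38 (edgeR adjusted p = 0.0196) did not pass in the cre libraries (-0.25, adjusted p = 0.415), nor without wild-type B1b replicate 1 (-0.31, adjusted p = 0.0981) or replicate 2 (-0.31, adjusted p = 0.105). Abca1 had a difference of -0.33 with a 95% interval from -0.73 to 0.08 (adjusted p = 0.129). For Abca5, the chromosome 11 neighbour beside Abca6, the difference was -0.20 with an interval from -0.86 to 0.46, its levels being 8.832, 20.99 and 16.87 CPM in wild-type B1b cells and 11.98 to 26.4 CPM in wild-type aortas.

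**Figure D3:**
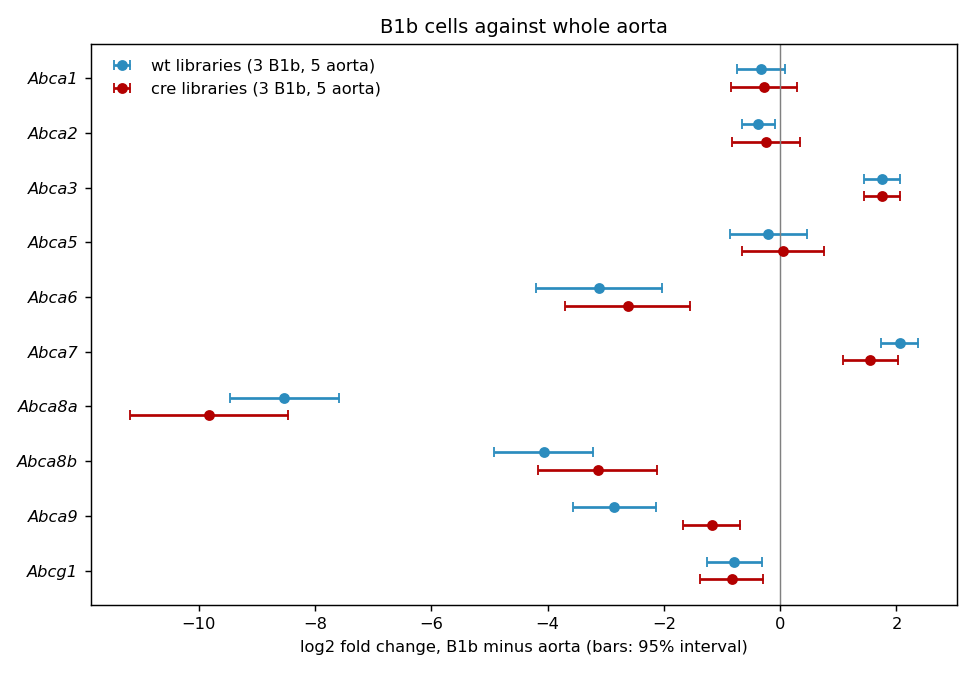
Log2 fold change, B1b cells minus aorta, of each of the 10 genes with its 95% interval (horizontal axis; vertical line at 0), for wild-type libraries (blue) and cre libraries (red), 3 B1b and 5 aorta each. Abca3 and Abca7 lie to the right of 0 in both sets and Abca6, Abca8a, Abca8b, Abca9 and Abcg1 to the left, with Abca9 at -2.85 in wild type and -1.17 in cre.

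The cre libraries, which the wild-type fit left out, gave the same directions for the 7 genes called there. Of these, Abca8a, with 2, 2 and 0 counts in cre B1b cells, again passed the filter through the aortas alone and had to differ. edgeR called 74% of 14408 genes in them. Proportions among the chromosome 11 neighbours were also taken. Ratios to Abca8a restate the difference that this gene had to show, and rest on 0 to 8 Abca8a counts per B1b library. Abca9 counts were 9.75 to 58 times those of Abca8a in wild-type B1b libraries and 0.2626 to 0.5237 times in wild-type aortas. In the 2 cre B1b libraries with any Abca8a count the ratio was 74.5 and 78.5, and in cre aortas 0.1949 to 0.4234. Abca8b, too, exceeded Abca8a in every B1b library and in none of the aortas, with ratios of 2.25 to 17 in wild-type B1b cells and 0.1084 to 0.2158 in wild-type aortas. With Abca8a left aside, Abca9 counts were 3 to 6.833 times those of Abca8b in wild-type B1b libraries and 1.348 to 2.647 times in wild-type aortas. In cre libraries those ratios were 5.065 to 10.76 and 0.8588 to 2.636.

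The next comparison was between genotypes in B1b cells. Abca9 had the only difference that passed, and it was the value known when the genes were chosen. In the wild-type libraries 39, 58 and 123 counts were read and in the cre libraries 157, 149 and 226, or 5.219, 7.514 and 13.65 CPM against 19.58, 21.34 and 22.95 CPM. All 3 cre libraries were above all 3 wild-type libraries, and groups did not overlap, in either direction, for 17.9% of all genes tested. On the log2 scale cre exceeded wild type by 1.27 with a standard error of 0.26. The call held without wild-type replicate 3, at 1.74, and was lost without any of the other 5 libraries, at 1.02 to 1.35. Of the 9 genes tested by edgeR, 1 was called where 0.707% of 11732 genes were called, and nothing is read from that count. Human ABCA9 is known to be induced as monocytes turn into macrophages in culture.

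The summed level of markers of macrophages and monocytes, which share the peritoneal cavity, was also higher in the cre B1b libraries. The 16 listed markers summed to 298.8, 401.3 and 495.0 CPM in wild type and 580.5, 628.9 and 589.8 CPM in cre, without overlap. Itgam gave the largest part of the wild-type sum, at means of 179.5 ± 21.3 and 199.1 ± 11.4 CPM (wild type and cre; SD, n = 3 each). It alone of the 16 had a higher mean in wild-type B1b cells than in wild-type aortas, where it was 127.6 CPM. Which cells the Itgam reads came from was not tested. None of the 16 was at 0 over a whole group. Of the 14 tested, 1 rose in cre, the growth factor receptor gene Csf1r, from 8.539 ± 1.777 to 16.98 ± 2.059 CPM (SD, n = 3 each; edgeR adjusted p = 0.0357), in a comparison where 0.707% of all genes were called. limma-voom called 0 of the 14 and DESeq2 called 2, Csf1r and Mrc1. By edgeR 6 of the 14 had an unadjusted p under 0.05, against 13.3% of all genes. The median log2 fold change of the 14 was 0.82, but markers differed. Lyz2, whose means differed most in CPM, stood at means of 101.7 ± 43.9 and 206.9 ± 25.9 CPM, and Ccr2 of 21 ± 14.6 and 55.7 ± 11.6 CPM (wild type and cre; SD, n = 3 each). The log2 differences of C1qa, Cd163 and Mrc1 were 1.34, 1.08 and 0.88, and none of these passed in edgeR. Only Adgre1 and Timd4 of the 14, markers of resident macrophages, were below 0. Their values were -0.28 (SE 0.19) and -0.49 (SE 0.52), and neither passed. Gata6, another such marker, was near 0 CPM in both genotypes, at means of 0.482 and 0.1247 CPM. Counts of Abca9 ran at 0.7959 to 1.367 times those of Csf1r in wild-type and 1.121 to 1.559 times in cre B1b cells, but at 0.1264 to 0.3516 times in the 10 aortas. Fibroblast markers, 9 in the list, summed to 22.02 to 41.22 CPM in wild-type and 25.49 to 28.43 CPM in cre B1b cells, far under the 12841 to 22513 CPM of the aortas. The part of macrophage RNA in the Abca9 difference was not tested.

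**Figure D4:**
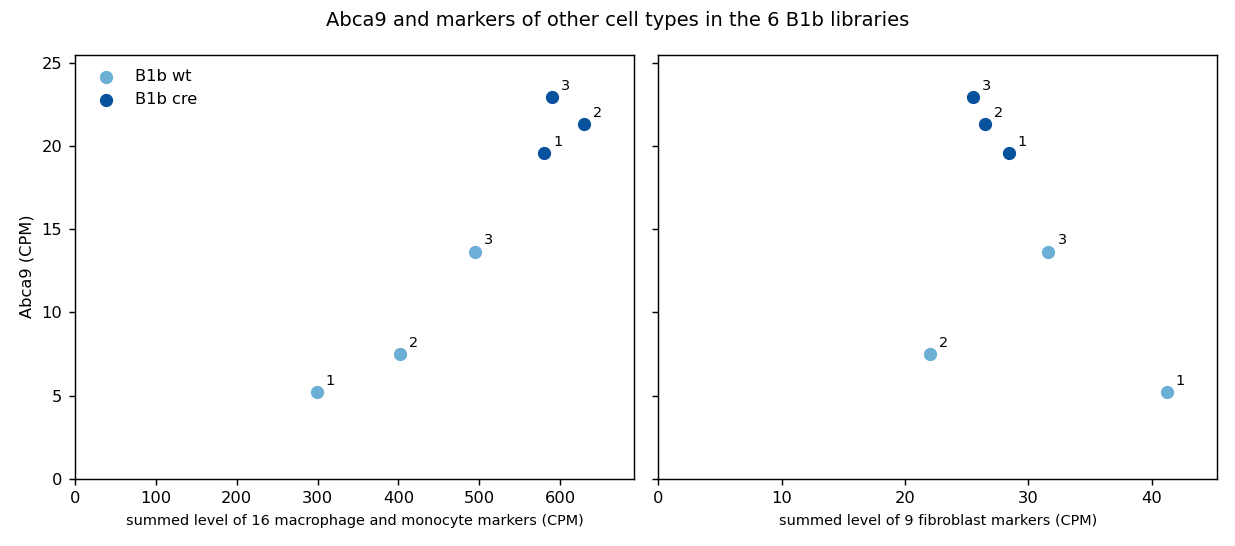
Abca9 level (CPM, vertical axis) in the 6 B1b libraries against the summed level of 16 macrophage and monocyte markers (left) or 9 fibroblast markers (right), both in CPM; numbers are replicates. The 3 cre libraries start at 580.5 CPM of macrophage markers and 19.58 CPM of Abca9, and the fibroblast sums of the groups overlap. Itgam gave the largest part of the macrophage sum in wild type.

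No other gene of the 10 was called in B1b cells by edgeR, DESeq2 or limma-voom. Abca7 was lower in cre without overlap, at 137.2, 111.4 and 140.0 CPM against the wild-type values above. Its log2 fold change was -0.28 (95% interval -0.47 to -0.09) and it missed the threshold (edgeR adjusted p = 0.173, unadjusted 0.00657). Among all genes tested 13.3% had an unadjusted p under 0.05, and groups did not overlap in 17.9%, with cre the lower in 8.93%. Abca3 differed by -0.04 (interval -0.23 to 0.15), with cre levels of 242.0, 185.1 and 249.6 CPM. Abca1 differed by -0.13 (-0.29 to 0.03) and Abcg1 by 0.11 (-0.12 to 0.33), intervals that hold no change of either exporter as large as 1.5-fold.

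Abca2, at 81.54, 86.92 and 61.03 CPM in cre, differed by -0.06 (-0.34 to 0.22). For the scarcer genes the limits were wide. Abca5, at 17.7, 16.61 and 10.76 CPM in cre, differed by -0.05 (-0.63 to 0.53). Abca6, read 6 to 17 times in wild type and 11 to 20 times in cre, differed by 0.28 with an interval from -0.92 to 1.49. Abca8b, read 31, 29 and 21 times in cre, differed by 0.76 (-0.26 to 1.78), and cre replicate 3, at 2.132 CPM, fell inside the wild-type range. Abca8a was too scarce to test, with 2, 2 and 0 counts in cre, where the library at 0 allows up to 0.3046 CPM at 3 counts. Intervals and such limits cover counting error and the spread of these libraries only. The median log2 fold change of the 9 genes tested was -0.04, beside 0.00 over all genes.

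**Figure D5:**
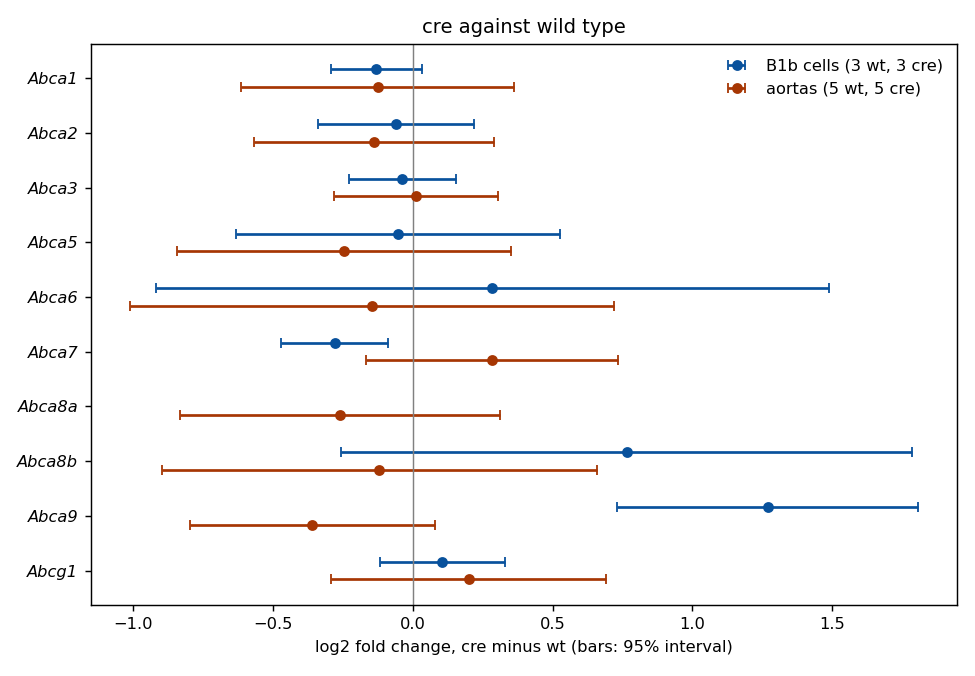
Log2 fold change, cre minus wild type, of each gene with its 95% interval (horizontal axis; vertical line at 0) in B1b cells (blue, 3 against 3) and aortas (red, 5 against 5); Abca8a was not tested in B1b cells. The interval of Abca9 in B1b cells runs from 0.73 to 1.81, and all aortic intervals cross 0.

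In aortas the comparison of genotypes asked whether the B cell CD40 deficiency that the series describes went with a change in the vessel wall. None of the 10 transporter genes was called there. edgeR called 0.015% of 13364 genes in aortas (2 genes), DESeq2 and limma-voom called 0 of the 10, and 0 of the 10 had an unadjusted edgeR p under 0.05, against 12.6% of all genes. Groups overlapped for all 10, against 2.9% of genes without overlap. Cre minus wild type, the median log2 fold change was -0.13 over the 10 genes and 0.00 over all.

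Abca1 differed in aortas by -0.13 (95% interval -0.61 to 0.36) and Abcg1 by 0.20 (-0.29 to 0.69), on the values listed above. Abca9 was 46.43, 34.87, 48.57, 49.08 and 67.69 CPM in cre aortas and differed by -0.36 (-0.80 to 0.08), the value farthest from 0. Abca8a, at 149.3, 82.37, 201.6, 251.9 and 163.0 CPM in cre, differed by -0.26 (-0.83 to 0.31). Cre replicate 2, the shallowest library, had the lowest Abca8a, Abca8b, Abca9, Abca6, Abca5 and Abca2 of all aortas.

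Abca7 in cre aortas was 32.02, 45.09, 44.07, 71.0 and 36.7 CPM, a difference of 0.28 (-0.17 to 0.74), and Abca3 was 63.13 to 80.95 CPM, a difference of 0.01 (-0.28 to 0.31). Abca2 spread from 57.12 to 130.3 CPM in cre (median 87.9) and differed by -0.14 (-0.57 to 0.29). For Abca5, Abca6 and Abca8b the differences were -0.25, -0.14 and -0.12, with intervals that ran at least from -0.84 to 0.35. Markers of tissues around the vessel were uneven across these aortas. The 7 heart muscle markers summed to 562.7 to 2512 CPM in wild type and 663.5 to 6415 CPM in cre, the 5 mesothelial markers to 26.21 to 50.57 CPM and 57.55 to 145.4 CPM, and the 9 fibroblast markers to 17954 to 22513 CPM and 12841 to 21504 CPM. Only the mesothelial sums of these 3 lists did not overlap. Their part in these values was not tested.

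Whether the genotype difference itself differed between tissues was tested by an interaction term over the 16 libraries. edgeR called 0 of the 10 genes and 0.0199% of 15091 genes. Abca9 had the largest value among the 10 and the only unadjusted p under 0.05, against 11.1% of all genes. Its genotype difference was 1.62 higher in B1b cells on the log2 scale (SE 0.39), which rests partly on the value that chose it. limma-voom called 0 of the 10 and DESeq2 called Abca9. Abca7 had an interaction of -0.57 (95% interval -1.17 to 0.03) and Abca8b of 0.86 (-0.43 to 2.16). For Abca1 and Abcg1 the terms were -0.01 (-0.69 to 0.67) and -0.10 (-0.80 to 0.59).

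Other genes of the superfamily were followed as a list of 42. Of the 21 tested in B1b cells, 0 passed between genotypes (edgeR; 3 had an unadjusted p under 0.05, DESeq2 called 1 and limma-voom 0). Nearest was Abce1, a ribosome recycling factor, with means of 210.4 ± 18.7 (wild type) and 272.1 ± 23.3 CPM (cre; SD, n = 3 each) and a log2 difference of 0.38 (edgeR adjusted p = 0.0504). Tap1, a peptide transporter of antigen presentation, and Abcb1b, a drug exporter, were among the next, at -0.30 and -0.75. In aortas 0 of 28 passed (5 unadjusted, 0 by DESeq2 and limma-voom), with Abcc8, Abcc9 and Abcc5 among those of smallest p, at 2.48, -0.63 and -0.31. Abcc8 and Abcc9 encode the sulfonylurea receptor subunits of potassium channels.

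Between wild-type B1b cells and aortas, 11 of 28 tested genes of that list were higher, 14 lower and 3 did not pass. Over all genes tested 75.9% were called, 35.4% higher and 40.4% lower. The largest differences were in Abcc9 (-10.37), Abcg2 (-6.47), Abcg4 (-6.30) and Abcc3 (-5.69), which did not pass the low-count filter within B1b cells, were tested here only through the aortas, and so had to differ. Abcb1a, Abcb4 and Abcb9, also among the lower genes, were likewise tested only through the aortas. Among the relatives closest to the 10 genes, Abca13 alone passed the filter in B1b cells, with means of 1.773 ± 0.687 (wild type) and 1.491 ± 0.112 CPM (cre; SD, n = 3 each). The other 6, Abca4, Abca12 and Abca14 to Abca17, did not pass it.

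Partners of Abca1 and Abcg1 in sterol efflux were followed as a list of 39 genes that hold LXR sensors, LXR targets, lipid acceptors and sterol stores. Between genotypes, 0 of 31 tested passed in B1b cells (edgeR; 3 unadjusted, 0 by DESeq2 and limma-voom) and 0 of 38 in aortas (2 unadjusted, 0 by either other tool). The smallest p in B1b cells after Apoe (log2 fold change -0.95, edgeR adjusted p = 0.153) were those of Smpdl3a, an LXR-induced phosphodiesterase (0.29), Gramd1a, an endoplasmic reticulum sterol carrier (-0.29), and Nr1h2, the gene of LXRβ (-0.18). Apoe was read in every group of this strain, at 7.255 to 9.501 CPM in wild-type and 3.293 to 5.077 CPM in cre B1b cells and 22.46 to 43.34 CPM in aortas, and no source used here says which part of that gene was disrupted. In aortas the smallest p were those of Lpcat3 (0.31), Apod (0.76), Nr1h3 (0.35) and Scd2 (0.48). Nr1h3 encodes LXRα, Lpcat3 a phospholipid-remodelling enzyme, Apod a lipocalin and Scd2 a fatty acid desaturase.

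The genes of the LXR receptors, which drive the exporters, were set against each other across tissues. Nr1h3 stood at 0.8782 ± 0.5312 CPM in wild-type B1b cells (SD, n = 3) and 30.6 ± 7.96 CPM in wild-type aortas (SD, n = 5), a log2 fold change of -5.07 (SE 0.38; adjusted p by edgeR 8.21e-08). It passed the filter on low counts through the aortas alone, and so had to differ. Nr1h2 was measured at 114 ± 10.3 and 96.8 ± 11.2 CPM and did not pass (0.22, adjusted p = 0.128). Of the 38 genes tested, 7 were higher in B1b cells, 23 lower and 8 did not pass, with a median of -0.79, where 35.4% of all genes tested were higher and 40.4% lower. The lower ones include Nr1h3, Pparg, Ch25h, Clu, Apod, Apoc1 and Lcat, which passed the filter through the aortas alone. Nothing is therefore read from that count or median. Of the 8 acceptors and partners listed, 3 passed the filter within B1b cells, Lpl (-7.46), Apoe (-1.95) and Scarb1 (-1.79), and each was lower there than in aortas. Clu (-10.15), Apod (-6.90), Apoc1 and Lcat were tested only through the aortas, and so had to differ. Srebf2, the master regulator of cholesterol synthesis, and Mylip, an LXR target that degrades the LDL receptor, were higher in B1b cells by 2.14 and 1.49. Apoa1, the acceptor for ABCA1, had no count in any B1b library and a mean of 0.04745 CPM in wild-type aortas.

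Across the 10 aortas the genes varied in different ways, described here by Pearson's r of log2 levels with no test, since the aortas mix both genotypes and share their cell makeup. Abcg1 followed the summed macrophage and monocyte markers with an r of 0.942 (Spearman's rho 0.915; 0.855 without the 2 aortas farthest from the median). Within the 5 wild-type aortas its r was 0.995 and within the 5 cre aortas 0.889. Wild-type replicate 5 was lowest in both, at 116.2 CPM of Abcg1 and 2998 CPM of markers, and cre replicate 5 highest in both, at 313.8 and 7255 CPM. Abca1 followed those markers less closely, with an r of 0.594 (0.677 without 2). Abca9 had no steady relation to them, with an r of -0.067 over all 10 aortas, 0.228 without 2, -0.312 within wild type and 0.607 within cre. Of the 60 such values computed, for the 10 genes with 6 marker lists, that of Abcg1 with macrophage markers was the highest. Abca9 had its own highest r, 0.704, with the 6 endothelial markers, at 0.686 without the 2 farthest aortas.

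Among 11622 genes of at least 5 CPM, those most like Abcg1 over the 10 aortas were Itgb2 (r 0.975, rho 0.988), Gusb (0.974), Pla2g7 (0.968), Ttyh3 (0.967) and Ctsb (0.961), which stayed between 0.897 and 0.937 without the 2 aortas farthest from the median. Among those most like Abca1 were Emp1 (r 0.946), Paip1 (0.916), Rsl1d1 (0.915) and Snap23 (0.913), at 0.780 to 0.900 without 2. Those most like Abca9 were Gpr107 (r 0.972), Nid1 (0.965), Myof, Col14a1 and Patj (0.941 each), at 0.862 to 0.961 without 2. Abca1 and Abcg1 had an r of 0.725 with each other (rho 0.867), while Abca9 with its neighbours Abca8b, Abca8a and Abca6 had 0.666, 0.598 and 0.525, and Abca9 with Abcg1 0.021. Abca1 counts exceeded those of Abcg1 in all 16 libraries, by 2.456 to 3.911 times in B1b cells and 1.65 to 3.1 times in aortas. Those counts come from transcripts of unlike length, 10262 and 5832 bases. Per kilobase Abca1 stayed higher in every B1b library. Abcg1 was higher in wild-type aorta replicate 3, at 38.8 against 36.38 CPM per kilobase. It was also slightly higher in cre aorta replicates 2 (26.7 against 26.42) and 3 (25.84 against 25.77).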

How the data were processed

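The authors deposited raw counts of reads for RefSeq transcripts, without normalization, in 16 columns matched to samples by title. Per the submitters' processing notes, CASAVA 1.8.2, STAR 2.5.2b and mm10 were used. How reads were counted, on which annotation and with which strand setting is not given in the sources used here. Of 35745 rows, 35440 took a name from RefSeq, 188 from GENCODE and 117 none (0.24% to 2.5% of the counts of a library, kept in library sizes). No library repeated another (chi-square per degree of freedom between replicates 5.12 to 45.3).

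The row of highest total was kept per gene. Comparisons were fitted in R 4.3.3 with edgeR 4.0.16 (TMM, filterByExpr, robust quasi-likelihood F test), each tissue or genotype on its own and the interaction on all 16 libraries, with Benjamini-Hochberg adjustment over all genes tested and a threshold of 0.05. Standard errors were taken from the F statistic. Printed CPM used TMM factors over all libraries, and levels per kilobase the GENCODE length of the matched transcript. DESeq2 1.42.0 and limma-voom (limma 3.58.1) were alternatives, with other size factors, no filter, the row of lowest total, all libraries in 1 fit and each library left out. Likeness used log2(CPM + 0.5). Scripts were tested on simulated data.

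The members and lists were chosen with earlier results of these data known. All 10 members were named, and from each list the genes past the threshold or the 4 of smallest p; in the tissue comparison up to 4 of largest change. A few genes outside this rule (Srebf2, Mylip, Nr1h3, Nr1h2, Apoa1, Apoe, Scarb1, Lcat, Pparg, Ch25h, Abcb1a, Abcb4 and Abcb9 there, and the macrophage markers Itgam, Lyz2, Ccr2, Adgre1, Timd4 and Gata6) were chosen after their values were seen. Some genes of the lists and of the likeness ranking are not reported here.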

Additional observations from a re-analysis of the deposited data

Results flagged for a closer look

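Among the 20 groups of 5 aortas tested for a library that stands apart, Abca5 in cre aortas was picked out. Replicate 4 had 25.68 CPM, and the other 4 cre aortas had 10.82 to 13.69 CPM, a gap of 0.807 of the range against a limit of 0.71. Chance flags about 1 in 20 such groups. A wild-type aorta reached 26.4 CPM of Abca5.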

How the results depend on the processing

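No paired analysis was possible because the labels give the samples different numbers in each group and no animal, litter or day. The count of members called in B1b cells was 1 and fell to 0 with all 16 libraries in 1 fit, and lay between 0 and 1 when a library was left out. That count is Abca9, whose log2 fold change in B1b cells stayed between 1.02 and 1.74 over the fits without a library, highest without wild-type replicate 3, and it missed the threshold in 5 of these 6 fits, all but that one. In the interaction 0 members were called and 1 with DESeq2 (Abca9, 1.69), and 0 in each of 16 fits without a library. Aortas gave 0 in all 17 alternatives, and the tissue comparison 7 to 8.

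Counts over all genes depended more on the processing. In B1b cells 83 genes were called, 196 with DESeq2, 327 without a filter and 0 with all libraries in 1 fit, and 35 to 103 without a library (35, 36 and 42 without wild-type replicate 1, cre replicate 1 and cre replicate 2). In aortas 2 were called, 204 with DESeq2, 47 with all libraries in 1 fit, 1 with limma-voom or the lowest row, 92 without the 2 shallow aortas and 0 to 14 without a library. In the interaction 3 were called, 173 with DESeq2, 2 with limma-voom and 1 to 7 without a library. The causes were not tested. Low counts limit Abca8a and Abca6 in B1b cells most.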
